A study of Homo sapiens with 8 samples.

Results

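The sites described here are the peaks of TAZ chromatin immunoprecipitation and sequencing (ChIP-seq) that were called in MCF10A cells without doxycycline (Dox) and at no time with it. MCF10A is an established, non-transformed line of human mammary epithelial cells. The cells carried a tet-inducible transgene for TAZ-4SA, an activated form of TAZ, in every condition, so the cells without Dox were transduced too. Dox was given at 0.05 µg/ml for 24, 48 or 72 h, or not at all, and chromatin of each of these 4 conditions was pulled down once with anti-TAZ and once with IgG. A peak of the list without Dox was taken when it shared not even 1 bp with a peak of the 24 h, 48 h or 72 h list. This left 251 of 2431 peaks, or 10.3% of the list without Dox. The sites were thus chosen by the peak calls themselves, with 1 TAZ library and no replicate for each condition. No difference given below carries a test for that reason, and the intervals printed are exact 95% binomial intervals over peaks that cover counting error only.

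TAZ is a co-activator at the end of the Hippo pathway. The Hippo kinases hold it in the cytoplasm, and when they are inactive it enters the nucleus. It does not bind DNA directly but is brought there mainly by the TEAD factors, often at enhancers where AP-1 is bound beside TEAD. A TAZ ChIP-seq peak with the TEAD sequence near its summit is therefore the usual picture of a TAZ site, while peaks at promoters without that sequence are also common in such data. A peak list holds values only where a peak was called, so a site absent from the Dox lists has no measured level there. Absence from a list is not a measurement of absent binding.

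The sequences below show 3 kinds of sites found among the 251. The first kind lay at transcription start sites (TSS) and held the core CCGGAA of the ETS family of transcription factors, which bind near the TSS of many housekeeping genes. These sequences are shown because 7 of the 12 sites with a fold of 7.5 or more held this core. Those shown had the summit within 100 bp of a TSS. PLD4, which also held the core, is left out, as its summit was 1310 bp from the TSS. The sequences are given on the plus strand of hg38 with CCGGAA, or its reverse complement TTCCGG, in capitals. They are shorter where the window ran into an annotated untranslated exon.

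DUS1L (chr17:82065853-82065881): aaacgcgttccCCGGAAaccgcgcccggc
BBS1 (chr11:66510542-66510602): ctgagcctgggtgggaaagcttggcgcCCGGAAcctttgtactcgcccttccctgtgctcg
MBTPS2 (chrX:21839511-21839571): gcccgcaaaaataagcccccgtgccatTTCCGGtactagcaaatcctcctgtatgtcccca
SNRNP27 (chr2:69893850-69893910): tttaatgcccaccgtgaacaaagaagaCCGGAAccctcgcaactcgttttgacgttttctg
DNAJC24 (chr11:31369822-31369850): ggaacagtgacTTCCGGcggaagaagaag
STK36 (chr2:218671984-218672012): cgcagCCGGAACCGGAAatgcccttaggg

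The second kind lay in tandem repeats, in which a unit of sequence is copied head to tail. They are shown because such sequence took a larger share of the 251 than of the other peaks without Dox. Capitals mark the first repeat period, and each site is named by the nearest protein-coding TSS. The repeat lies in the interval of the peak and need not hold its summit.

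METRNL (chr17:83068676-83068775): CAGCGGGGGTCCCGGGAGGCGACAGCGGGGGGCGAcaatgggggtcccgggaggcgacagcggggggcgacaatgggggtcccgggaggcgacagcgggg
ADGRA1 (chr10:133111348-133111447): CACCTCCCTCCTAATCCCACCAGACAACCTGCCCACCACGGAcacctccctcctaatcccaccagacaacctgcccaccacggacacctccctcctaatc

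The third kind held the TEAD consensus, ACATTCC or GCATTCC on either strand, which is in capitals together with the AP-1 consensus TGACTCA where that was present. They are shown because this is the sequence through which TAZ is known to reach DNA, and because few of the 251 had it.

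RAC2 (chr22:37259705-37259741): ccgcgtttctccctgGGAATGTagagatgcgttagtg
SERPINB8 (chr18:63994992-63995028): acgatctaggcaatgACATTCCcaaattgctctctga
MYO1E (chr15:59276547-59276583): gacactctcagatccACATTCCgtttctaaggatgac
PLD1 (chr3:171791880-171791971): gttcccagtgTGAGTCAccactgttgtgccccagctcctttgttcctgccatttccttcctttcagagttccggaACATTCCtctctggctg

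Library sizes were not part of the lists, so depth could not be compared directly. The lowest local background, counted in fragments at a summit, is only a rough guide to depth and was not checked against library size. This background was 1.49 in cells without Dox, whereas the 24 h library had 1.42, the 48 h library 2.84 and the 72 h library 2.01. The fewest fragments that could reach the lowest −log10 p of the list over that background were 12 for 48 h and 9 for each of the other lists. A peak without Dox thus needed few fragments, and a site near that limit has a wide counting interval. The intervals of the 24 h list covered 1.11 Mb, those of the 48 h list 8.17 Mb and those of the 72 h list 37.2 Mb, so the lists differed in how much of the genome could end membership. Of the 2431 peaks without Dox, 79.9% had no overlapping peak at 24 h, 68.0% had none at 48 h and 10.7% had none at 72 h. The 72 h list therefore decided membership, since the number of sites was 252 without the 24 h list, 252 without the 48 h list and 1597 without the 72 h list.

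Most of the 251 sites were weak peaks. Their median fold enrichment, the ChIP signal at the summit over the local background as given by the authors, was 4.75 (95% order-statistic interval 4.54 to 4.82). For the 2169 other peaks without Dox on chromosomes 1 to 22, X and Y it was 5.75 (5.64 to 5.87). The median number of fragments over the summit was 12 for the 251 sites and 20 for the others, and 195 of the 251 (77.7%, interval 72.0 to 82.7) had at most 15 fragments against 456 of 2169 (21.02%, 19.3 to 22.8). Values of −log10 q under 5 were found at 186 sites (74.1%, 68.2 to 79.4) and at 562 of the others (25.9%, 24.1 to 27.8). As strength bears on whether a peak is called in any list, these values describe how the sites were chosen and are no separate result.

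**Figure D1:**
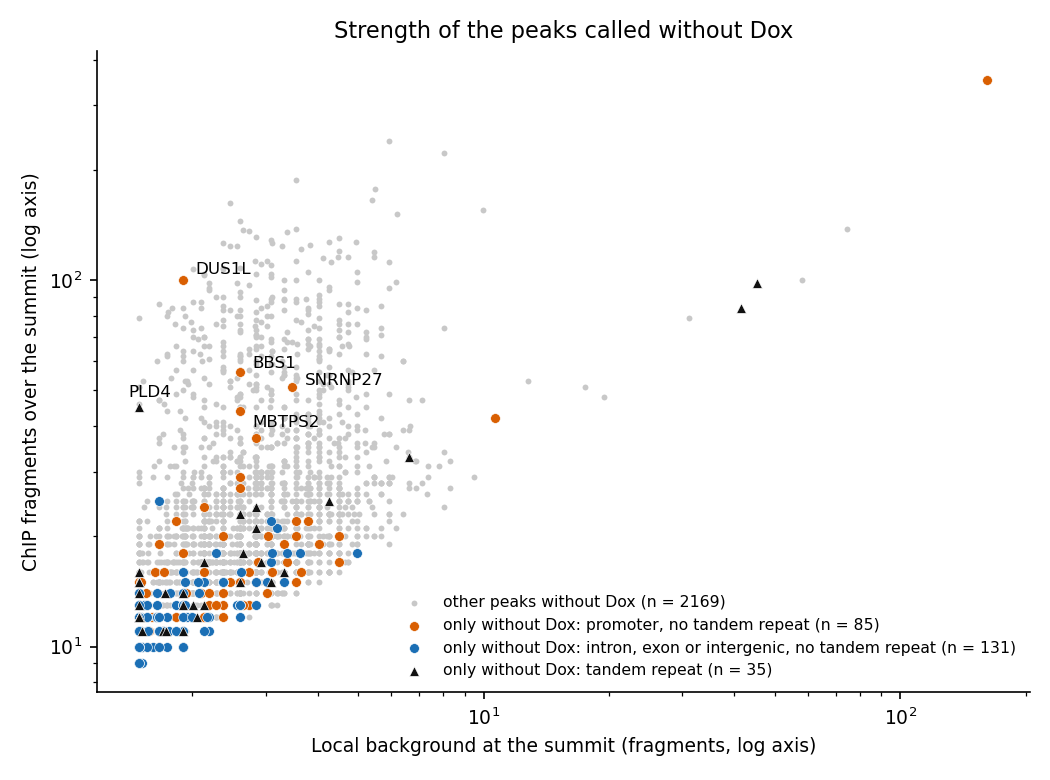
ChIP fragments over the summit (vertical, log axis) against the local background in fragments (horizontal, log axis) for every peak without Dox on chromosomes 1 to 22, X and Y, with 1 point a peak. Grey points are peaks that overlapped a Dox peak, and orange (promoter), blue (elsewhere) and black triangles (tandem repeat) are the 251 sites called only without Dox, of which most sit at the lower left with at most 15 fragments and a few, such as DUS1L with 100, stand among the strong peaks.

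When all peaks without Dox were ordered by fold enrichment and divided into 10 equal parts, the share of sites called only without Dox was 12.8% in the weakest part, 21.9% (16.9 to 27.7) in the next and 1.24% (0.256 to 3.58) in the strongest. The strongest part, with folds from 13.8 to 47.0, held 3 of the 251 sites.

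**Figure D2:**
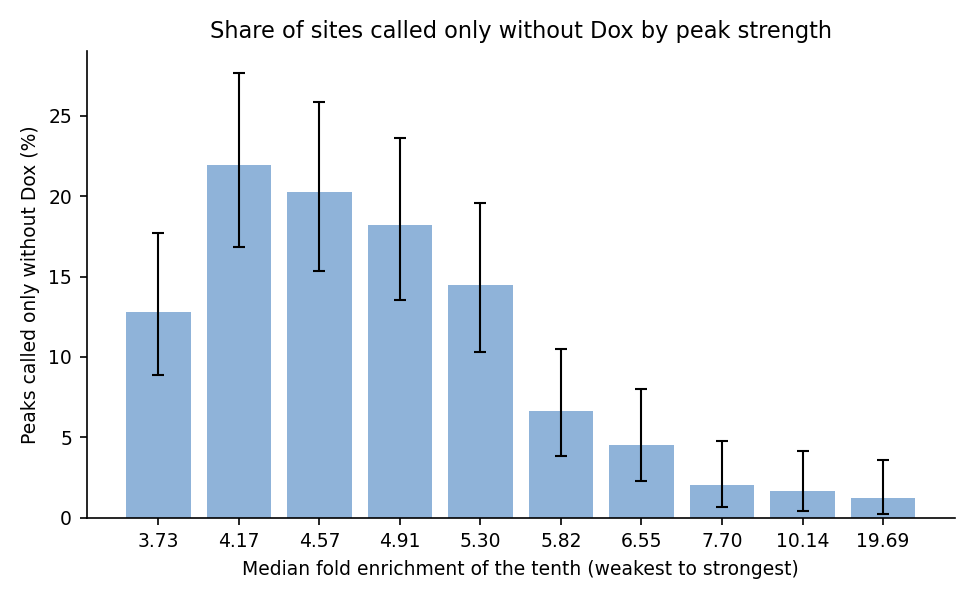
Share of peaks without Dox that were called only without Dox (vertical, %) in 10 equal parts of the list ordered by fold enrichment, with the median fold of each part on the horizontal axis. Bars are shares of 242 peaks and lines are exact 95% binomial intervals, and the share falls from 21.9% in the second weakest part to 1.24% in the strongest.

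The strongest of the sites lay at promoters. The peak at DUS1L, which encodes a tRNA dihydrouridine synthase, had a fold enrichment of 34.9 from 100 fragments (95% Poisson interval 81.4 to 122) over a background of 1.90. Its interval (chr17:82065680-82066379) had the summit 32 bp inside the gene, and the nearest 72 h peak was 27726 bp away. PLD4, an exonuclease of the phospholipase D family, followed with a fold of 18.5 from 45 fragments (32.8 to 60.2) and a summit 1310 bp downstream of the TSS. BBS1, a subunit of the BBSome that carries cargo in cilia, had 15.8 from 56 fragments (42.3 to 72.7). At these genes the counting intervals lay well above the 9 fragments needed for a call.

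MBTPS2, the protease that releases the SREBP factors of sterol synthesis, had a fold of 12.5 from 44 fragments (32.0 to 59.1). SNRNP27, a protein of the spliceosomal tri-snRNP, had 11.6 from 51 fragments (37.97 to 67.1), and DNAJC24, a J-domain protein of diphthamide synthesis, had 9.89 from 37 fragments (26.1 to 51.0). Their summits were 39, 55 and 14 bp upstream of a TSS. The nearest 72 h peaks were 53791, 19714 and 139033 bp away, so none of these 3 sites lay near the rule's limit.

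Of the 12 sites with a fold of 7.5 or more, 11 lay at promoters, 8 had the summit within 100 bp of a TSS, 7 held CCGGAA and 0 held the TEAD consensus. The others of this group were RAP1GAP2, a GTPase activator for Rap1, with 9.78 at an intronic site nearest to it, the zinc finger gene ZKSCAN4 with 8.32, the kinase gene STK36 with 8.14, CACHD1 with 7.98, the splicing factor gene PLRG1 with 7.76 and SHISA7 with 7.52. CACHD1 was the only 1 of these 12 with a 72 h peak within 1 kb, at 912 bp. PLRG1 lay 10134, 10021 and 9765 bp from the nearest peak at 24, 48 and 72 h.

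Ranks 13 to 20 had folds from 6.82 to 6.42 and from 15 to 24 fragments, and tandem repeats were frequent among them. Repeats were found nearest to PPP2R2C, a regulatory subunit of protein phosphatase 2A (6.82), at the site on chromosome 21 nearest to TPTE (6.65), nearest to CACNG5 (6.504), METRNL (6.42) and NTN5 (6.42). The site nearest to TPTE was 3955899 bp from that gene's TSS, so the name only marks its place. The remaining sites of these ranks were the TSS of THNSL2 (6.56), the promoter of PCYT2, an enzyme of phosphatidylethanolamine synthesis (6.47), and a promoter nearest to KATNAL2 (6.42) that belongs to the pseudogene ELOA3CP. Outside promoters, the next highest sites included those nearest to SERPINB8 (6.02), INSIG1 (5.87) and ASB13 (5.75).

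Promoters were less frequent among the sites than in the rest of the list. Promoters, taken as 3 kb to each side of any annotated TSS, held 91 of the 251 summits (36.3%, 30.3 to 42.5), introns 94 (37.5%), intergenic sequence 62 (24.7%) and exons 4 (1.59%). Of the 1344 peaks found again at 72 h alone, 91.4% (89.8 to 92.9) lay at promoters, and of the 344 found at 48 and 72 h, 51.7% (46.3 to 57.1). The share at promoters among the 425 peaks found at every time was 41.7% (36.9 to 46.5), and its interval overlapped that of the 251 sites. Among weak peaks alone, with −log10 q under 5, the promoter share was 31.2% (24.6 to 38.4) for 186 sites and 74.4% (70.6 to 77.9) for 562 others. These 2 groups were not matched for strength, with medians of 12 and 15 fragments and median folds of 4.45 and 4.17. The part of strength in the promoter shares was not tested. The lower promoter share of the sites was not there under another definition of a shared peak. When 50% of each overlapping interval had to be shared, 1038 peaks were called only without Dox. Of the 1034 of them on chromosomes 1 to 22, X and Y, 74.4% lay at promoters against 69.2% of the remaining peaks, and their median GC content was 64.2%.

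**Figure D3:**
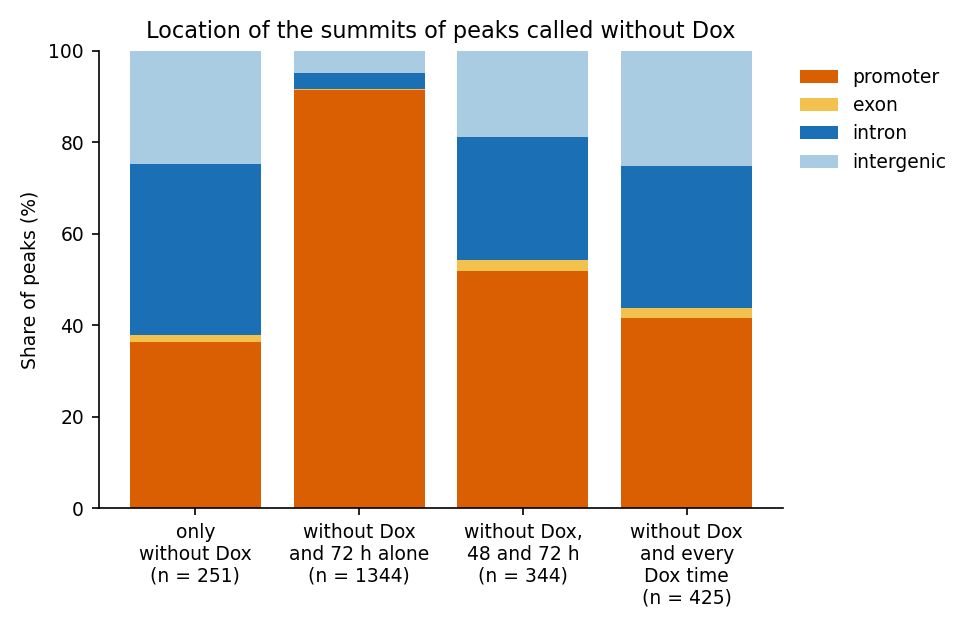
Share of summits (vertical, %) at promoters, in exons, in introns and in intergenic sequence for 4 classes of peaks called without Dox, by the Dox lists in which they were found again. Promoters take 36.3% of the sites called only without Dox, 91.4% of those found again at 72 h alone and 41.7% of those found at every time.

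Summits of the sites were seldom right at a TSS. Within 100 bp of a TSS were 24 of the 251 (9.56%, 6.22 to 13.9), against 58.6% (55.9 to 61.2) of the peaks found again at 72 h alone and 8.47% (6.003 to 11.5) of those found at every time. The median distance to a TSS was 6749 bp (4550 to 9560) for the sites and 67 bp (59 to 75) for the peaks shared with 72 h alone. These 24 sites had a median fold of 5.62 (4.45 to 8.14), and 11 of them held CCGGAA. Among the 91 promoter sites, 47 (51.6%, 40.9 to 62.3) had 10 or more CpG within 100 bp of the summit, as CpG island promoters do, against 90.5% (88.7 to 92.1) of the promoter peaks shared with 72 h alone.

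The base composition differed in the same way. Median GC content within 100 bp of the summit was 52.7% (51.7 to 54.2) for the sites, 67.2% (66.7 to 68.2) for the peaks shared with 72 h alone and 52.2% (51.2 to 53.2) for those found at every time. In windows of the same length centred 1000 bp to each side of the sites it was 45.3%, and at the TSS of all protein-coding genes 63.2%.

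Within 100 bp of the summit, the TEAD consensus was found at 14 of the 251 sites (5.58%, 3.08 to 9.18). By comparison, it was found at 53.4% (48.5 to 58.2) of the peaks called at every time, at 26.2% (21.6 to 31.2) of those called at 48 and 72 h and at 4.61% (3.56 to 5.88) of those called at 72 h alone. Windows of the same length 1000 bp to each side of the sites held it in 5.19% (3.42 to 7.51), and the TSS windows of protein-coding genes in 3.52% (3.27 to 3.79). The share at the sites was thus within the interval of their own flanks. Over the whole peak interval in place of these windows, TEAD was found at 10.8% of the sites, 30.3% of all other peaks and 73.2% of those called at every time. Among weak peaks, TEAD was found at 10 of 186 sites (5.38%, 2.61 to 9.67) and at 37.1% (25.2 to 50.3) of the 62 weak peaks called at every time. Introns and intergenic sequence, where TEAD sites are usually found, gave 9 of 156 (5.77%, 2.67 to 10.7) against 56.1% (49.5 to 62.5) at the same kind of location among peaks called at every time.

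The 10 strongest of the sites with TEAD had folds between 6.28 and 4.42. They were RAC2, a small GTPase of blood cells, SERPINB8, DNAH14, ARMCX5, MYO1E, TSC22D1, VNN2, KLHL4, PLD1 and SYNE3. The match at RAC2 was 84 bp from the summit and that at SERPINB8 44 bp, while those at MYO1E and SYNE3 were 5 and 3 bp from it. The 21 bases around the match at VNN2 occurred 2997 times on the chromosomes and those at KLHL4 158 times. For the other 12 matches these 21 bases occurred 1 time.

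AP-1 gave the same picture, with 7 of 251 sites (2.79%, 1.13 to 5.66), 17.6% (14.1 to 21.6) of the peaks called at every time and 4.19% (2.61 to 6.34) of the flanks. Over the whole interval the share was 9.56% for the sites and 33.9% for the peaks called at every time. The 7 sites were SSBP3, PLD1, CHAMP1, TCP11L2, ADGRB3, MAL2 and SFI1, with folds from 4.70 to 4.14. PLD1, which encodes a phospholipase D, had both motifs, 18 bp and 47 bp from the summit. Its fold was 4.63 from 18 fragments.

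ETS sequence was rare outside the strongest sites. The consensus CCGGAAG was found at 9 of 251 (3.59%, 1.65 to 6.70) and the core CCGGAA at 22 (8.76%, 5.58 to 12.97), against 26.04% (23.7 to 28.5) and 40.0% (37.3 to 42.6) of the peaks shared with 72 h alone. In the flanks the core was found in 2.59% (1.39 to 4.40), and at the TSS of protein-coding genes in 16.1% (15.6 to 16.6). The 20 sites with the highest fold held 8 of the 22, and the other 231 sites held 14. Within promoters the core was present at 15 of 91 sites (16.5%, 9.53 to 25.7) and at 42.6% (39.8 to 45.4) of the peaks shared with 72 h alone. Besides the sites printed above, the core was found next to the TSS of THNSL2, of CSTF2, a cleavage stimulation factor of mRNA 3′ ends, and of DNAJC5, ZDHHC4, ARMCX5 and ZNF316, with folds from 6.56 to 4.92.

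Of the further motifs, GGGCGG of the SP and KLF factors was found at 17.1% (12.7 to 22.4) of the sites and 55.0% (52.3 to 57.7) of the peaks shared with 72 h alone, and at 7.58% (5.42 to 10.3) of the flanks. CCAAT of NFY was found at 14.7% (10.6 to 19.7), TGTGGTT of RUNX at 3.59% (1.65 to 6.70) and the E-box CACGTG at 5.18% (2.79 to 8.69). In the flanks these shares were 22.95% (19.3 to 26.9), 4.39% (2.77 to 6.57) and 2.79% (1.54 to 4.64). The share with NFY was thus lower at the sites than in their flanks, with intervals that overlapped narrowly. For RUNX and the E-box the intervals overlapped too. Among the peaks shared with 72 h alone NFY was found at 15.4% (13.5 to 17.4). The CREB and Kaiso palindromes were found at 0 of the 251, with an exact upper limit of 1.46%. They were also rare in the flanks, with CREB in 2 of 501 windows and Kaiso in 0 of 501.

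**Figure D4:**
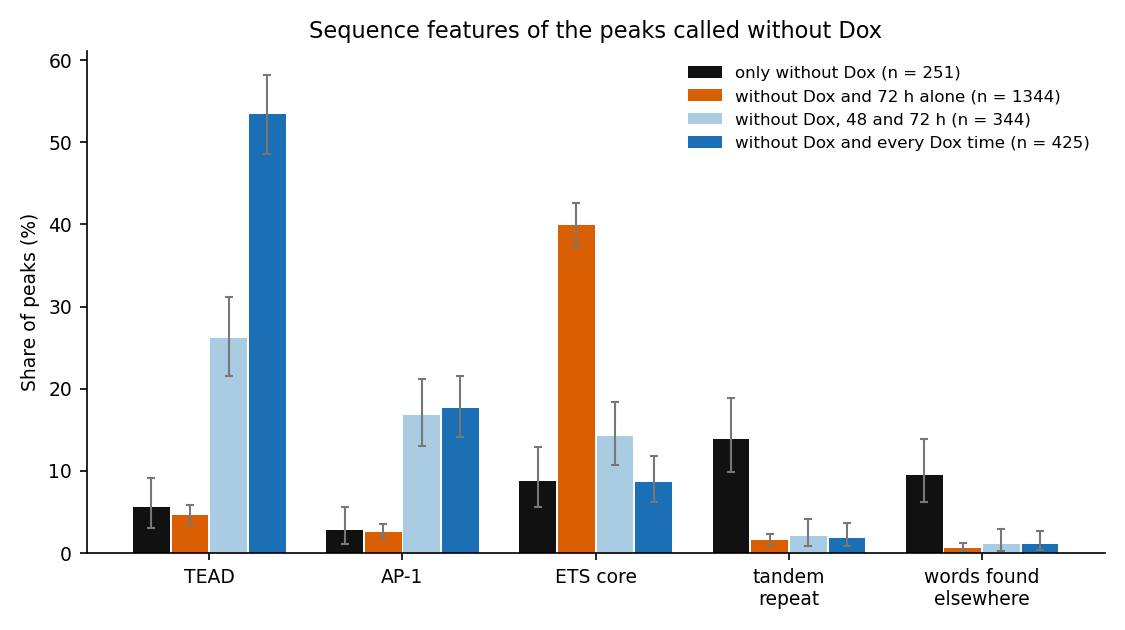
Share of peaks (vertical, %) with the TEAD, AP-1 or ETS core sequence within 100 bp of the summit, with a tandem repeat in the interval, or with words of 50 bases found elsewhere on the chromosomes, for 4 classes of peaks called without Dox. Lines are exact 95% binomial intervals, and the sites called only without Dox (black) show 5.58% with TEAD against 53.4% of the peaks called at every time, and the highest shares among these classes of tandem repeats (13.9%) and repeated words (9.56%).

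Tandem repeats were found at 35 of the 251 sites (13.9%, 9.91 to 18.9). A repeat was counted where 100 bases of the interval were at least 80% identical to the bases 6 to 100 bp further on, a measure chosen after the sequences had been seen. The share was 1.56% (0.970 to 2.38) among peaks shared with 72 h alone, 2.03% (0.822 to 4.15) among those at 48 and 72 h and 1.88% (0.816 to 3.67) among those at every time. Among weak peaks it was 10.2% (6.26 to 15.5) for the sites and 1.42% (0.616 to 2.79) for the others. With 50% of each interval shared, it was 4.54% of the 1034 sites on chromosomes 1 to 22, X and Y and 1.88% of the others. The 251 sites held 35 of all 73 repeats among peaks without Dox on these chromosomes.

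These 35 sites lay mostly outside promoters, with 16 in introns, 13 in intergenic sequence and 6 at promoters. Within 5 Mb of a chromosome end were 16 of them (45.7%, 28.8 to 63.3), against 38 of the 216 sites without a repeat (17.6%, 12.8 to 23.3). Their median fold was 5.204 (4.59 to 5.22), and that of the 216 was 4.68 (4.51 to 4.80). The shift of highest identity ran from 6 bp, the shortest searched, to 87 bp. It can be a multiple of the repeat unit, so it does not rank the units by length. The shift of 6 bp belonged to the site nearest to RABL2B, whose summit was 0.01 Mb from the end of chromosome 22. That site had a fold of 5.62 from 13 fragments. The site nearest to ADGRA1, 0.686 Mb from the end of chromosome 10, repeated a unit of 42 bp with 100% identity, with a fold of 5.72 from 21 fragments. Only PLD4, with 45 fragments, combined a repeat with a fold over 7.

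Sequence found elsewhere on the chromosomes was counted as a further feature. At 24 of the 251 sites (9.56%, 6.22 to 13.9), at least 50% of the words of 50 bases in the window also occurred elsewhere on the chromosomes, against 9 of 1344 (0.670%), 4 of 344 and 5 of 425 in the other classes. Of the 24 sites, 21 held no tandem repeat, so the features were mostly found at different sites. Either feature was present at 56 sites (22.3%, 17.3 to 28.0) and at 52 of the 2169 other peaks (2.40%, 1.80 to 3.13). Reads from such sequence can map to more than 1 place, and the part of mapping in these calls was not tested. The words were searched on chromosomes 1 to 22, X and Y, and the mitochondrial genome was left out. The 195 sites with neither feature had a median fold of 4.68 (4.51 to 4.80), and 13 of them held TEAD. They include a site of 352 fragments in a mitochondrial pseudogene, so they are not all free of sequence found elsewhere.

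A group of 3 sites had a fold under 3 in spite of many fragments, because their local background was high. The highest count was 352 fragments over a background of 162, 328 bp inside the mitochondrial pseudogene MTATP6P1 on chromosome 1. A site 7415 bp from the TSS of the ribosomal RNA gene RNA5-8SN2 on chromosome 21 had 98 fragments over 45.3, and a site on chromosome 1 nearest to H3-7 had 84 over 41.5. The last pair both held tandem repeats. These sites were singled out after their values were seen.

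The distance to the Dox peaks was shorter for the lists with more peaks, and the rule itself had removed every overlap. The median distance from a site to the nearest peak was 301200 bp at 24 h, 86150 bp at 48 h and 18930 bp at 72 h. The median distance to another 72 h peak was 13860 bp for the peaks shared with 72 h alone. It was 7439 bp for those at 48 and 72 h and 5715 bp for those called at every time. No site had a 24 h peak within 1 kb, 4 had a 48 h peak and 26 a 72 h peak. A 72 h peak within 10 kb was found for 86 sites (34.3%, 28.4 to 40.5), while another 72 h peak was that near for 42.9% (40.2 to 45.5) of the peaks shared with 72 h alone, an interval that overlaps that of the sites, for 60.2% (54.8 to 65.4) of those at 48 and 72 h and for 65.9% (61.2 to 70.4) of those called at every time. Within promoters it was 43.96% (33.6 to 54.7) of the sites and 40.8% (38.1 to 43.6) of the peaks shared with 72 h alone.

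**Figure D5:**
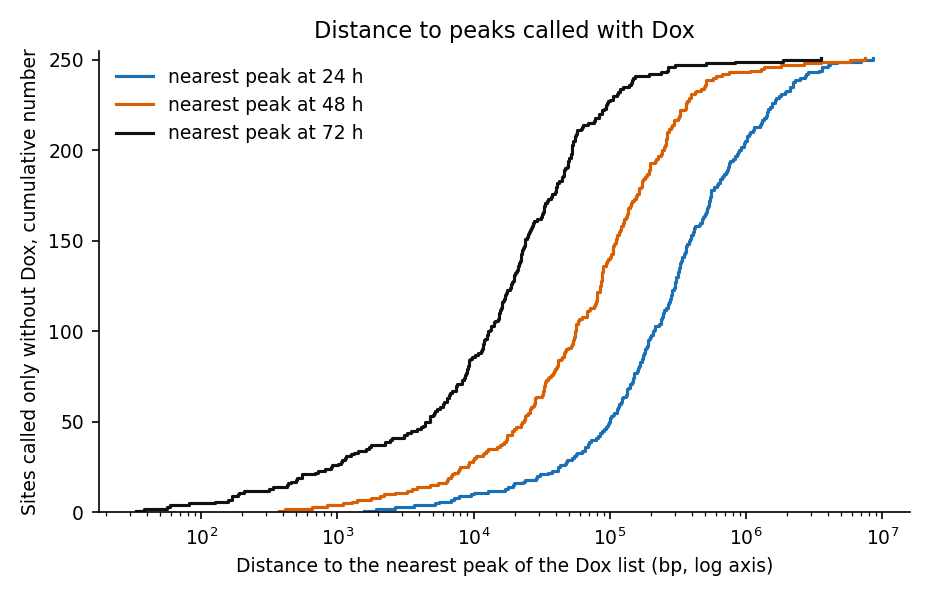
Cumulative number of the 251 sites (vertical) against the distance in bp to the nearest peak of each Dox list (horizontal, log axis). The 72 h list, with 38667 peaks, lies nearest with a median of 18930 bp, and 26 sites sit within 1 kb of it.

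The sites just inside the rule were nearest to GNG4, ENSG00000124593, MAL2, TFAP2C and ATP6V1C1, with gaps of 33, 38, 56, 59 and 82 bp to a 72 h peak and folds from 3.18 to 4.75. The peaks just outside it were nearest to NRP1, SAMD15, TGDS, CFAP126 and HMGA2, with overlaps of 4, 5, 45, 69 and 94 bp and folds from 3.48 to 6.18. HMGA2, a chromatin protein of growing cells, stood on both sides, since a further peak at its promoter with a fold of 5.00 was a site of the 251 with a gap of 508 bp. A site 9485 bp downstream of the TSS of YAP1, the paralog of TAZ, had a fold of 4.93 from 12 fragments and a gap of 127 bp to a 72 h peak. It was named after its value was seen.

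The genes at these sites were few and of many kinds. Within 3 kb of a TSS, 78 of 20007 protein-coding genes had a site, and 1884 had any peak without Dox. Of the 78, 42 (53.8%, 42.2 to 65.2) also had a 72 h peak within 3 kb that did not overlap the site, close to the 58.5% of all protein-coding genes with a 72 h peak there. At 48 h the numbers were 8 (10.3%, 4.53 to 19.2) and 9.10%, and at 24 h 1 (1.28%) and 2.55%. Examples are STAG2, WASL, BSG and RAET1E, where the nearest 72 h peak was 436, 157, 185 and 690 bp from the site.

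The gene lists are read against these 78 of 20007 genes, a share so low that a list of under 100 genes with no site does not stand apart from all genes. None of the 22 genes of the YAP/TAZ target signature had 1 of the 251 within 3 kb, while 9 had a peak without Dox and 21 a peak at 72 h. No site was found either at the 4 TEAD genes, the 11 AP-1 genes, the 31 Hippo pathway genes and the 16 basal and luminal mammary markers. Among the lists of housekeeping genes, 0 of 83 cytosolic ribosomal protein genes, 0 of 78 mitochondrial ribosomal protein genes, 0 of 88 respiratory chain genes, 0 of 69 histone genes and 0 of 56 DNA repair genes had a site.

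The lists with a site were the spliceosome with SNRNP27 (1 of 66), the cilium and basal body with BBS1 and STK36 (2 of 84), the zinc finger genes with ZKSCAN4 and ZNF316 (2 of 599) and the chaperones with DNAJC24 and DNAJC5 (2 of 71). None of these 7 genes had a 72 h peak within 3 kb of a TSS. The sites at STK36 and DNAJC24 also lay within 1 kb of a TSS on the opposite strand, of RNF25 and DCDC1. Neither these counts of 1 or 2 nor the counts of 0 single out a list.

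A few genes were nearest to more than 1 site with its summit within 100 kb of a TSS of the gene. The sites of a pair can lie further apart than that. They were BTBD2, DIP2C, DNAH14, FAM234A and SLC45A4, each with 2. The pair at BTBD2 had folds of 3.74 and 4.39, the pair nearest to DIP2C 5.22 and 4.75, that at DNAH14 3.93 and 5.24, that at FAM234A 4.31 and 5.22 and that at SLC45A4 4.69 and 3.88. In general the sites were scattered, as another peak without Dox within 100 kb was found for 78 of the 251 (31.1%, 25.4 to 37.2) and for 39.8% (37.7 to 41.9) of the other peaks. By chromosome, leaving out Y with 1 peak in all, the share of peaks without Dox that were called only without Dox ran from 5.30% (2.16 to 10.6) on chromosome 5 to 22.9% (10.4 to 40.1) on the X chromosome, where 8 of 35 peaks were of this kind.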

How the data were processed

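TAZ ChIP-seq was measured in MCF10A cells with inducible TAZ-4SA, with 1 TAZ and 1 IgG library for each of 4 conditions, grouped by their titles. The labels name 1 peak list per condition for both libraries, and whether IgG served as the control is not given in the sources used here. Per the study's methods and the submitters' processing notes, reads were trimmed, mapped to hg38 with BWA and peaks called by MACS2 (false discovery rate 0.01), which for 2431 peaks allows about 24.3 false calls. No source used here gives their versions. The deposited lists hold the fold enrichment (a ratio with a pseudocount of 1), −log10 of the p-value and of the q-value, a score that is −log10 q times a constant, and the summit offset, all made by the authors. No column belonged to another series.

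Members and gene lists were chosen with earlier results of these data known. A site was a peak without Dox that overlapped no Dox peak by 1 bp. Fragments and background at a summit were solved from the fold and the Poisson p-value together, which gave back at least 99.4% of the deposited p-values to within 0.003 in −log10 units. GENCODE version 44 was used to annotate the summits, leaving out those on unplaced contigs. The reference was hg38, the build of the lists. Motifs were searched on both strands up to 100 bp from summits, in equal windows 1000 bp to each side and at the TSS of protein-coding genes. TEAD was ACATTCC or GCATTCC, AP-1 TGACTCA and ETS CCGGAAG. Tandem repeats, repeated words (50 bases, more than 1000 bp away) and the core CCGGAA were added after the sequences had been seen. Intervals are exact (Clopper-Pearson for shares, Poisson for counts, order statistics for medians).

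Each site was named by the nearest protein-coding TSS. Named were the 20 highest folds, the 10 highest outside promoters, up to 10 with TEAD and with AP-1, 5 sites just inside and 5 peaks just outside the rule, list genes with a site within 3 kb, and genes with 2 or more sites within 100 kb of a TSS. Other names were chosen after their values were seen. No test was made, since each condition has 1 TAZ library. Overlaps, solver, motifs and repeats were tested on simulated data. Python 3.11.15, numpy 2.4.6, pandas 2.3.3, scipy 1.17.1 and pysam 0.24.0 were used. Some items are not reported here.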

Additional observations from a re-analysis of the deposited data

How the results depend on the processing

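The sites come from 1 library without replicates, most with at most 15 fragments, so the calls rest on few reads and no spread between samples could be had. No paired analysis was possible because each condition has 1 TAZ library. Of 57 alternatives, 41 left the value within the interval of the main one or within 1.5 times the main count. Those that kept only chromosomes 1 to 22, X and Y are counted among these 41. They could not move a value, since all 251 sites lie on these chromosomes. When a shared peak had to cover 50% of each of the overlapping intervals, 1038 sites took the place of 251, and the 1034 of them on chromosomes 1 to 22, X and Y had 74.4% at promoters, a median fold of 4.84, a median GC content of 64.2%, 11.99% with the ETS consensus and 4.54% in tandem repeats. The promoter share of the remaining peaks was then 69.2%, so the order of the promoter shares turned. The order of the tandem repeat shares did not, as the remaining peaks had 1.88%. This setting by construction drops overlapping peaks of unequal width. Without the 72 h list there were 1597 sites. With −log10 q of at least 3 in the list without Dox the median fold was 4.83. The promoter share was 26.7% with a promoter of 1 kb and 27.9% with TSS of protein-coding genes alone. In the whole interval TEAD was found at 10.8% and AP-1 at 9.56%, and the GC content was 51.2%. Within 50 bp of the summit AP-1 was found at 0.797% and ETS at 1.59%. The ETS core gave 8.76%.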
